A study of Mus musculus with 40 samples.

Results

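The steroidogenic genes of the corpus luteum and the theca were followed in the ovary and in 4 other tissues of mice that had lost Mdm2. There were 9 of them, taken by name from the 18024 genes of the deposited table: Scarb1, Star, Cyp11a1, Fdx1, Hsd3b1, Cyp17a1, Akr1c18, Lhcgr and Ptgfr. All 9 had a row, and all 9 had enough reads to be tested in the ovary. The study sequenced RNA of the ovary, pancreas, kidney, heart and small intestine of 60-day-old C57BL/6j mice. They were examined 24 hours after p53 had been activated by the loss of Mdm2, the ubiquitin ligase that keeps p53 low. FMTg mice (Mdm2FM/- Cag-CreERTg) gave 5 libraries per tissue and have lost Mdm2. Tg mice (Mdm2+/- Cag-CreERTg) gave 3 libraries per tissue and retain 1 working copy. Both groups therefore lack 1 Mdm2 allele and carry the same CreER transgene, a Cre recombinase that tamoxifen switches on, under the Cag promoter, which is active in most cell types, so that no single ovarian cell type was targeted. The stage of the oestrous cycle, which sets how many corpora lutea an ovary holds, is not given in the sources used here.

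The 8 ovary libraries came from 8 mice, by the numbers in their titles, and held 8.97 to 23.0 M (mega) reads each. Across all 40 libraries, which came from 13 mice, depth ran from 7.16 to 29.0 M reads. Values below are normalised reads, the reads recovered from the deposited log2 values and divided by the size factor of the library. Differences are FMTg minus Tg on the deposited log2 scale, with the standard error (SE) of the limma model, and folds are powers of 2 of these differences. A gene was called at a limma p of below 0.05 after Benjamini-Hochberg adjustment over all genes tested in the tissue. Exact tests are two-sided permutation tests over all 56 divisions of the 8 libraries of a tissue by group size, which cannot give a p below 0.0179. In a whole ovary, fewer cells of a type and less RNA per cell cannot be told apart. Mdm2 itself averaged 1596 ± 483 normalised reads in FMTg ovaries and 907 ± 94.8 in Tg ovaries (SD, n = 5 and 3), with all 5 FMTg libraries above all 3 Tg libraries and no call (difference 0.77 ± 0.23, adjusted p = 0.515). Mdm2 is a p53 target and the deleted part is not named, so its total does not check the deletion.

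Ovarian steroid hormones are made from cholesterol. Lipoprotein cholesterol enters the cell through the receptor SR-B1, the StAR protein carries it into the mitochondrion, and the side-chain cleavage enzyme P450scc, fed with electrons by ferredoxin, turns it into pregnenolone. The 3β-hydroxysteroid dehydrogenase makes progesterone from pregnenolone, the main product of the corpus luteum, while theca cells use the 17α-hydroxylase to make androgen. Luteinising hormone drives both cell types through its receptor. In rodents prostaglandin F2α ends the life of the corpus luteum through its own receptor, and the 20α-hydroxysteroid dehydrogenase, which inactivates progesterone, marks a corpus luteum that is regressing.

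Promoter windows are shown for Cyp11a1, Akr1c18 and Ptgfr, because these are members whose FMTg and Tg ovary values did not overlap and for which RefSeq (GRCm38.p6) gave a window of 250 bases before to 50 bases after the start of the gene. Scarb1, the other such member, is named only. Capitals mark the letters AGGTCA, or TGACCT on the other strand, a hexamer that many nuclear receptors bind. That motif was added after these sequences had been read.
Cyp11a1 (chr9:58014702-58015001, plus strand): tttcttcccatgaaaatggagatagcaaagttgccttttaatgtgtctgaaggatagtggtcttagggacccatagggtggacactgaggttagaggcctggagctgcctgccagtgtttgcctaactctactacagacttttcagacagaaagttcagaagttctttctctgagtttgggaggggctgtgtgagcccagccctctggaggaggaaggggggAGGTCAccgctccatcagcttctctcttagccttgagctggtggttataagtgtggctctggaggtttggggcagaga
Akr1c18 (chr13:4150597-4150896, minus strand): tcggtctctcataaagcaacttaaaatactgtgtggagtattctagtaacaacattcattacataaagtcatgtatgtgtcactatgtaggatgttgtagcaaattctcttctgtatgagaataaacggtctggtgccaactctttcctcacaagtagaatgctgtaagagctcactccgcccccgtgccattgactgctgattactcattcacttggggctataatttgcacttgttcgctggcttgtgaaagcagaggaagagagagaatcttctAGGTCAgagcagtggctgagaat
Ptgfr (chr3:151837479-151837778, minus strand): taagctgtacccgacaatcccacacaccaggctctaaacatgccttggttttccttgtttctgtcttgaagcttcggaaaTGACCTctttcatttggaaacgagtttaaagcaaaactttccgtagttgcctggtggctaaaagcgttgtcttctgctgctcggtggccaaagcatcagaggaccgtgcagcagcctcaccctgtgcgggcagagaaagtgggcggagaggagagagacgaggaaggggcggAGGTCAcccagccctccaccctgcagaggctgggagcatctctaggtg
The capitals began 28 bases before the start in Cyp11a1, 27 bases after it in Akr1c18, and 170 bases before and 2 bases after it in Ptgfr. The motif was searched on both strands and is held by 16.3% of the 32851 RefSeq windows of 300 bases. A longer form, AAGGTCA, which contains it and which steroidogenic factor 1 binds, was in none of these 3 windows and in 4.72% of all windows. TGACG, the core of the cyclic AMP response element, was also in none of these 3 and in 20.8% of all windows. The RefSeq start shown for Cyp11a1 lay 8541 bases inside the gene as GENCODE M21 annotates it. RefSeq lists another start of Cyp11a1 further upstream, outside that span, whose window is not shown. That window held no AGGTCA, and it held TGACG once, on the minus strand, 50 bases before the start. Hsd3b1, Lhcgr and Fdx1 had a window as well, of which that of Lhcgr held AGGTCA once, 122 bases before the start. A match of letters describes the window and does not show a binding site.

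In the ovary 8 of the 9 genes had a lower mean in FMTg than in Tg mice, and none was called (0 of 9). The percentage of all 16486 genes called was also 0, with 1049 genes at an unadjusted limma p below 0.05, and voom on the recovered reads called 0 with 928 at that level. A mean lower in FMTg was common, at 52.9% of all genes. For 7 of the 9 genes the lower mean came with an unadjusted p below 0.05, which 1.93% of all genes reached in that direction. In 4 of the 9, Cyp11a1, Scarb1, Akr1c18 and Ptgfr, every FMTg library lay below every Tg library, which 2.38% of all genes showed. The median difference of the 9 genes was -0.91, beside -0.02 for all genes tested. The genes were picked with results of these libraries known, so these shares describe the group and do not test it.

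**Figure D1:**
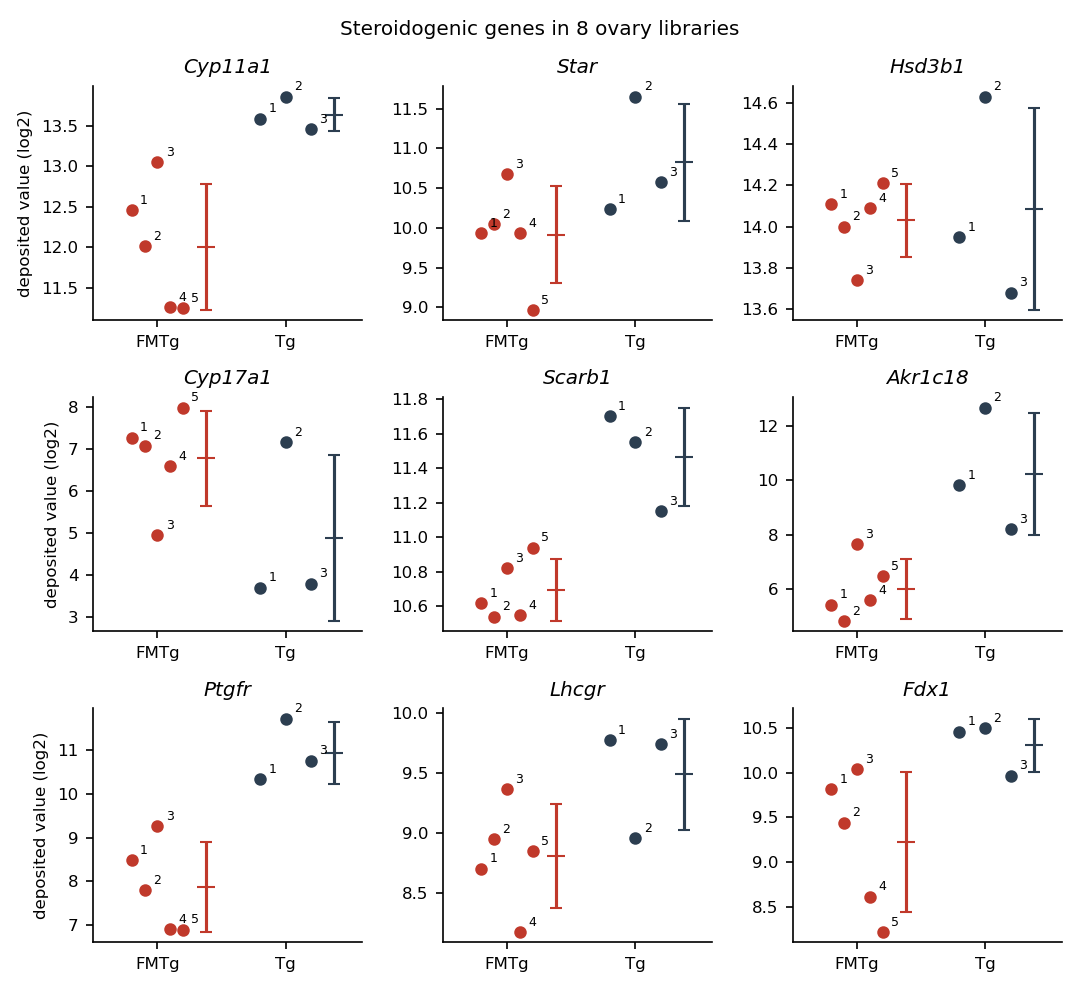
Deposited log2 values of the 9 genes in the ovary, 1 panel per gene, with FMTg libraries (n = 5) left and Tg libraries (n = 3) right. Points are libraries with their replicate number, and bars are the mean ± SD. The FMTg points of Cyp11a1, Scarb1, Akr1c18 and Ptgfr all lie below the Tg points, and those of Hsd3b1 and Cyp17a1 overlap with them.

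Cholesterol enters by way of Scarb1, the gene of SR-B1 (ENSMUSG00000037936.15, GENCODE M21 on GRCm38, chromosome 5, 125277087 to 125341094). It had 1564, 1482, 1797, 1488 and 1958 normalised reads in the 5 FMTg ovaries and 3320, 2995 and 2272 in the 3 Tg ovaries. The FMTg values were close together and all below the lowest Tg value. The difference was -0.78 ± 0.16, 1.71-fold lower in FMTg, with an exact p of 0.0179 and a limma adjusted p of 0.326. Of the 9 genes Scarb1 had the smallest standard error.

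The carrier Star (ENSMUSG00000031574.8, chromosome 8, 25806555 to 25815982), which sets the pace of acute steroid production, had 971, 1056, 1635, 973 and 495.5 normalised reads in FMTg ovaries, against 1202, 3213 and 1526 in Tg ovaries. The groups overlapped, since FMTg replicate 3 lay above 2 of the Tg libraries. The difference was -0.91 ± 0.40 (limma adjusted p = 0.780, exact p = 0.107). Its size rested in part on Tg replicate 2, without which it was -0.50.

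Cyp11a1 (ENSMUSG00000032323.13, chromosome 9, 58006411 to 58027023) encodes P450scc, the first and committed enzyme of the pathway. It had 5642, 4131, 8484, 2451 and 2421 normalised reads in FMTg ovaries and 12349, 14890.4 and 11228 in Tg ovaries. The Tg ovaries were all alike and all above the highest FMTg ovary, while the FMTg ovaries spread widely, with replicates 4 and 5 lowest and replicate 3 highest. The group means were 4626 ± 2537 and 12823 ± 1877 (SD), a difference of -1.63 ± 0.40 or 3.09-fold lower in FMTg. The exact p was 0.0357 and the limma adjusted p 0.411.

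Fdx1 (ENSMUSG00000032051.9, chromosome 9, 51943306 to 51963556), the ferredoxin that passes electrons to P450scc, followed a like order of libraries. It had 897, 688, 1047, 385 and 291 normalised reads in FMTg ovaries, against 1400.2, 1445 and 995 in Tg ovaries. Only FMTg replicate 3 reached the range of the Tg ovaries. The difference was -1.08 ± 0.41 (adjusted p = 0.683 by limma, exact p = 0.0893). Fdx1 is expressed in most tissues, since ferredoxin also serves other mitochondrial cytochromes.

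Hsd3b1 (ENSMUSG00000027871.16, chromosome 3, 98852194 to 98859794), the 3β-hydroxysteroid dehydrogenase that completes progesterone, stood apart from the genes before it. Its normalised reads were 17708, 16386, 13679, 17404 and 18958 in FMTg ovaries and 15823, 25298 and 13075 in Tg ovaries. The FMTg values all fell inside the range of the Tg values. The difference of -0.05 ± 0.25 had a limma adjusted p of 0.968, and its sign was not stable: it was 0.22 without Tg replicate 2 and 0.02 without FMTg replicate 3. Of the 50-base words in its transcripts 4.98% also occur in other genes, 2.77% in the pseudogene Gm12431, so a small part of its reads could be shared.

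The reads of Cyp11a1 and Hsd3b1 were also set against each other within each ovary, which needs no size factor. Cyp11a1 had 0.319, 0.252, 0.620, 0.141 and 0.128 reads per Hsd3b1 read in FMTg ovaries, against 0.781, 0.589 and 0.859 in Tg ovaries. FMTg replicate 3 lay inside the Tg range and the other 4 FMTg ovaries lay below it. This ratio was looked at after the values had been seen and was not tested.

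Cyp17a1 (ENSMUSG00000003555.7, chromosome 19, 46667165 to 46673172), the 17α-hydroxylase of theca cells, was the 1 gene with a higher mean in FMTg. It had few reads: 148, 129, 25.2, 90.5 and 247 normalised reads in FMTg ovaries and 7.54, 138 and 8.37 in Tg ovaries. The groups overlapped, because Tg replicate 2 had as much as most FMTg ovaries while the other Tg ovaries had fewest of all. The difference was 1.89 ± 0.90 (adjusted p = 0.806 by limma, exact p = 0.143), and it was 3.02 without Tg replicate 2. Within the FMTg group replicate 3 was lowest for Cyp17a1 and highest for Cyp11a1, while replicates 1, 2 and 4 stood in the same order for both genes.

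Akr1c18 (ENSMUSG00000021214.14, chromosome 13, 4132615 to 4150654), the 20α-hydroxysteroid dehydrogenase, had the largest difference of the 9 genes in the ovary. It had 36.8, 22.4, 194, 42.3 and 82.4 normalised reads in FMTg ovaries and 898, 6539 and 290.3 in Tg ovaries. No FMTg ovary reached the lowest Tg ovary, and on the log2 scale the Tg ovaries differed more from each other than in any other member. The difference was -4.25 ± 0.95, 19.0-fold lower in FMTg, with an exact p of 0.0179 and a limma adjusted p of 0.375. Tg replicate 2 carried part of it, since the difference was -3.02 without that ovary and -5.26 without Tg replicate 3. Of its 50-base words 0.608% also occur in the related gene Akr1cl on chromosome 1. Akr1cl had 8469 to 23097 normalised reads in the ovaries, and how many reads the 2 genes shared was not tested.

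Of the receptors, Ptgfr (ENSMUSG00000028036.6, chromosome 3, 151796502 to 151837630), the receptor of prostaglandin F2α, had the smallest p of the 9 genes. It had 353, 217, 609, 114 and 113 normalised reads in FMTg ovaries, against 1289.7, 3375 and 1729.8 in Tg ovaries. The highest FMTg ovary, replicate 3, was well below the lowest Tg ovary, replicate 1. The difference was -3.07 ± 0.56, 8.38-fold lower in FMTg (exact p = 0.0179, limma unadjusted p = 3.92e-04, adjusted p = 0.274). When limma weighted each library by its own spread, Ptgfr was the 1 member that was called, with an adjusted p of 0.0366, among 17 genes called in all. Over the 19 alternative settings its adjusted p ran from 0.0366 to 1.00.

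Lhcgr (ENSMUSG00000024107.6, chromosome 17, 88716481 to 88791990), the receptor of luteinising hormone, differed least among the members with a lower mean, apart from Hsd3b1. It had 411, 489, 652.5, 284 and 455 normalised reads in FMTg ovaries and 868, 490.3 and 849 in Tg ovaries. Only FMTg replicate 3 lay above a Tg ovary, and FMTg replicate 2 was level with Tg replicate 2. The difference was -0.68 ± 0.28 (adjusted p = 0.758 by limma, exact p = 0.0893).

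Expressed per kilobase of annotated exon, so that genes can be compared, Hsd3b1 was the most abundant of the 9 in both groups, at 9071 ± 1070 normalised reads per kilobase in FMTg and 9739 ± 3457 in Tg ovaries (SD). Cyp11a1 came next, at 963 ± 528 in FMTg and 2669 ± 391 in Tg ovaries. In FMTg ovaries Star (249.5 ± 98.7), Fdx1 (213 ± 104) and Scarb1 (195 ± 24.8) followed with overlapping values, and then Akr1c18 (62.6 ± 57.9), Lhcgr (59.9 ± 17.5), Cyp17a1 (46.3 ± 29.4) and Ptgfr (41.5 ± 30.7), again overlapping, with Akr1c18 also reaching Star and Fdx1. In Tg ovaries Akr1c18 stood next at 2134 ± 2855, and its range of 240.5 to 5418 reached from Ptgfr to above Cyp11a1. Star, Fdx1, Scarb1 and Ptgfr overlapped between 190.3 and 781 per kilobase in Tg ovaries. Lhcgr (96.2 ± 27.8) and Cyp17a1 (18.5 ± 27.0) were lowest in Tg ovaries and did not overlap. Exon length here is that of all annotated exons, so isoforms of other lengths would move these levels. Together the 9 genes took 0.220 to 0.283% of all reads in FMTg ovaries, against 0.264 to 0.595% in Tg ovaries. Their summed normalised reads were 23232 to 28123 in FMTg and 31973 to 58383 in Tg ovaries and did not overlap. The sums use size factors, while the shares use all reads of a library.

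The order of the libraries differed between the genes. Among the FMTg ovaries, Cyp11a1, Fdx1 and Ptgfr shared 1 order, and replicate 3 was highest for these and for Star, Akr1c18 and Lhcgr, but not for Scarb1, Hsd3b1 and Cyp17a1. The median over the 9 genes of each ovary's deviation from the gene's own mean was -0.32, -0.20, 0.24, -0.88 and -1.11 (log2) in FMTg replicates 1 to 5, against 0.72, 1.10 and 0.34 in Tg replicates 1 to 3. By this median FMTg replicate 3 was nearest to the Tg ovaries, and FMTg replicates 4 and 5 were farthest. Cyp11a1, Star, Scarb1 and Fdx1 stayed closest to the mean profile of the 9, with a root mean square distance of 0.39 (Star) to 0.46 (Cyp11a1), and Cyp17a1 (1.89) and Akr1c18 (1.82) were farthest from it.

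Outside the group, the genes whose profile over the 8 ovaries was most like the mean profile of the 9 were Epdr1, an ependymin-related glycoprotein, Klhl30, a kelch-like protein, Kcnma1, the pore subunit of the large-conductance calcium-activated potassium channel, Hrk, a BH3-only apoptosis protein, and Slc25a30, a mitochondrial carrier. Their root mean square distances were 0.25, 0.30, 0.32, 0.32 and 0.33. Epdr1 averaged 306 ± 77.4 normalised reads in FMTg and 800.0 ± 282 in Tg ovaries (SD), a difference of -1.35 ± 0.27 (limma adjusted p = 0.316). None of the 5 was called, and the likeness covers the genotype difference as well as the order within the groups.

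The other genes of the pathway showed no common direction. Of 63 genes on 4 lists, 62 were tested in the ovary, 29 with a lower and 33 with a higher mean in FMTg, and none was called. An unadjusted limma p below 0.05 was reached by 6 of them in the lower and 4 in the higher direction. The median difference was -0.33 for luteal receptors, regulators and markers (10 of 16 lower), 0.19 for other steroidogenic enzymes and electron donors (6 of 14 lower), 0.05 for cholesterol supply and transport (8 of 17 lower) and 0.11 for steroidogenic transcription factors (5 of 15 lower), beside -0.02 for all genes.

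Among the luteal genes, Sfrp4, a secreted Wnt antagonist that rodent corpora lutea express, had 399.8, 361, 1098, 257 and 437 normalised reads in FMTg ovaries, against 1512, 8070.3 and 2829.8 in Tg ovaries. The groups did not overlap, and as for Akr1c18 and Ptgfr the second Tg ovary was highest and the third FMTg ovary was the highest of its group. Its difference was -2.85 ± 0.57 (limma adjusted p = 0.316). Cited4, a transcriptional co-regulator, differed by -0.71 ± 0.19, Pgr, the progesterone receptor, by -0.84 ± 0.28 and Prlr, the prolactin receptor that sustains the rodent corpus luteum, by -0.73 ± 0.23, with limma adjusted p from 0.457 to 0.593. The groups of Cited4 and Pgr did not overlap and those of Prlr did.

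Hsd17b7, a 17β-hydroxysteroid dehydrogenase of the rodent corpus luteum that also acts in cholesterol synthesis, had 270.5, 499, 817, 227 and 275 normalised reads in FMTg ovaries and 855, 814 and 1963 in Tg ovaries. All but FMTg replicate 3 lay below the Tg ovaries, and the difference was -1.57 ± 0.45 (limma adjusted p = 0.494). Runx2, a runt transcription factor, had 90.6, 164, 413, 38.6 and 48.95 normalised reads in FMTg ovaries and 909, 509 and 433 in Tg ovaries. Its groups did not overlap, and its difference was -2.41 ± 0.68 (limma adjusted p = 0.474). Nr5a1, which encodes steroidogenic factor 1, differed by 0.12 and Nr5a2, its close relative in granulosa and luteal cells, by 0.18; these 2 were picked out after their values were seen.

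Higher means in FMTg at an unadjusted p below 0.05 were those of Apoe, the lipoprotein ligand (1.71 ± 0.54), Lipe, the hormone-sensitive lipase that frees stored cholesterol (1.00 ± 0.34), Cyb5a, cytochrome b5, a helper of the 17α-hydroxylase (0.59 ± 0.19), and Cebpa, a transcription factor of adipocytes and granulosa cells (0.82 ± 0.34). Their limma adjusted p ran from 0.548 (Apoe) to 0.749 (Cebpa). Apoe had 4233, 5539, 3106, 12163 and 17561 normalised reads in FMTg ovaries and 1523, 2496 and 2458 in Tg ovaries. FMTg replicates 4 and 5 were highest for Apoe and for Lipe, and these were the 2 ovaries with the most adipocyte RNA, as given next.

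**Figure D2:**
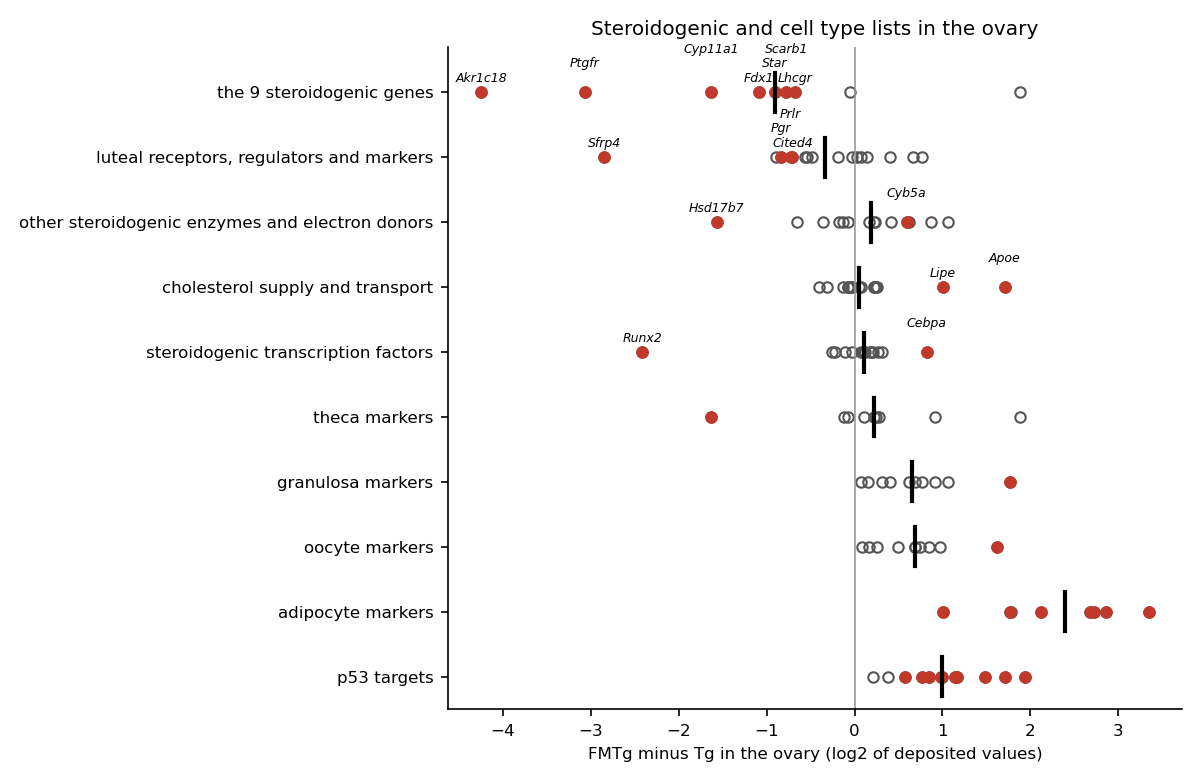
Differences between FMTg (n = 5) and Tg ovaries (n = 3) on the log2 scale for the 9 genes and 9 other lists, 1 circle per gene, filled where the unadjusted limma p is below 0.05, with a vertical bar at the median of the list. The 9 genes lie mostly left of 0 with a median of -0.91, and the adipocyte markers all lie right of 0.

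Markers of other cells also differed between the groups. Of the 8 adipocyte markers all 8 had a higher mean in FMTg, with a median difference of 2.40. Their summed normalised reads were 6734, 9187, 3784, 37877 and 47461 in FMTg ovaries, against 2193, 2402 and 3808 in Tg ovaries, so that FMTg replicates 4 and 5 stood apart. Cfd averaged 8714 ± 9054 in FMTg and 787 ± 317 in Tg ovaries (SD), and Fabp4 5309 ± 5280 and 789 ± 372. Without these 2 ovaries the differences were -1.13 for Cyp11a1, -0.54 for Fdx1, -0.60 for Star, -0.81 for Scarb1, -4.27 for Akr1c18 and -2.42 for Ptgfr, each of the same sign as with them. Cyp17a1 was 1.55 and the median of the 9 genes -0.60 without them.

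Transcripts of pancreatic acinar cells made up 27.7% of all reads in Tg replicate 1 of the ovary, against 0.00274 to 5.98% in the 5 FMTg and 0.144 to 0.539% in the other 2 Tg ovaries. Of the 23 acinar markers tested 22 had a lower mean in FMTg, with a median difference of -3.46, and Ctrb1, with 27444 ± 42057 normalised reads in FMTg and 223778 ± 377993 in Tg ovaries (SD), was highest. Size factors recomputed without the acinar genes left the 9 differences between -4.38 (Akr1c18) and 2.23 (Cyp17a1), each of the same sign. Without Tg replicate 1 they lay between -4.45 and 1.29, with Cyp11a1 at -1.65 and Ptgfr at -3.37.

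Granulosa and oocyte markers had higher means in FMTg ovaries in 10 of 10 genes each, with median differences of 0.66 and 0.69. Only 1 gene of each list had an unadjusted limma p below 0.05, and 0 were called. The sums overlapped between the groups, at 3550.0 to 13895 in FMTg and 2254 to 7764 in Tg ovaries for granulosa markers. For oocyte markers they were 1794 to 4461 and 1179 to 2939. Inha averaged 3165 ± 1563 in FMTg and 1859.5 ± 1144 in Tg ovaries. Theca markers, which include Cyp11a1 and Cyp17a1, had a median of 0.22 with 3 of 9 lower, and Insl3, the theca hormone that is not a member, differed by -0.11. Insl3 had few reads, at 0.656 to 15.2 normalised reads in FMTg and 3.35 to 12.8 in Tg ovaries. Tg hearts had 13.2 to 17.8, so its ovary value says little about theca cells. Markers of oviduct epithelium were also present, with sums of 16532 to 34224 in FMTg and 9769 to 33120 in Tg ovaries, which overlapped, and 4 of its 5 markers had a higher mean in FMTg (median 0.43). Ovgp1, the oviduct glycoprotein, averaged 20025 ± 7179 in FMTg and 16264 ± 10290 in Tg ovaries (SD). Of the 5 adrenal cortex markers 3 were tested in the ovary, 2 with a higher and 1 with a lower mean in FMTg. The sums of the 5 were 100.4 to 905.5 in FMTg and 166.5 to 447 in Tg ovaries. Most of the sum in FMTg ovaries was Mrap, which averaged 406 ± 400 in FMTg and 165 ± 57.8 in Tg ovaries (SD). The 21-hydroxylase gene Cyp21a1 had 4.595, 49.1, 3.25, 17.9 and 0 normalised reads in FMTg ovaries, against 186, 147 and 5.855 in Tg ovaries (difference -2.44 ± 1.12, limma adjusted p = 0.804). Cyp11b1 and Cyp11b2 were too low to be tested in the ovary: Cyp11b1 had at most 1.625 normalised reads in FMTg ovaries and 31.4, 0 and 0 in Tg ovaries, and Cyp11b2 had none in any. Hepatocyte markers, a list chosen after values were seen, summed to 326 to 10158 in FMTg and 84.5 to 1634 in Tg ovaries. In FMTg ovaries most of that was Cyp2e1, a cytochrome P450 of liver (3876 ± 4242 in FMTg and 132 ± 90.9 in Tg ovaries), while Alb averaged 124 ± 184 in FMTg and 258 ± 441 in Tg ovaries. Of the 12 p53 targets all 12 had a higher mean in FMTg, median 0.99. The part of these other cells in the values of the 9 genes was not tested beyond the fits just given.

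To see how far the 9 genes belong to the ovary, Tg ovaries were set against the mean of the other 4 tissues of the same 3 Tg mice, with mouse as a random block. Of the 9 genes 8 were called higher in the Tg ovary (limma, adjusted over all genes), where 21.8% of all genes were. The differences were 6.52 ± 1.37 for Hsd3b1, 6.50 ± 1.24 for Cyp11a1 and 5.81 ± 0.83 for Lhcgr, with adjusted p of at most 2.89e-04. They were 3.57 ± 0.75 for Ptgfr, 3.55 ± 0.70 for Star, 3.21 ± 1.11 for Akr1c18, 1.93 ± 0.30 for Scarb1 and 1.59 ± 0.26 for Fdx1. Cyp17a1, at 1.91 ± 0.92, was not called (adjusted p = 0.104). Without the mouse of Tg replicate 2 the difference of Akr1c18 was 1.24 and it was no longer called, which left 7 of the 9, as did the fit without the mouse block. Without FMTg replicates 4 and 5, which enter the shared estimate of the spread, Cyp17a1 was called too.

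The genes thus fell into those with few reads elsewhere and those with a level of their own in other tissues. Lhcgr had at most 213 normalised reads outside the ovary and none in the 3 Tg kidneys, where it was too low to be tested. Scarb1 ranged from 198 to 921 normalised reads in the kidney, heart and small intestine, apart from 1667 in FMTg heart replicate 4, and from 788 to 2487 in the pancreas. Fdx1 had 111 to 604 outside the ovary. Akr1c18 was plentiful in the kidney, at 2553, 378, 1602.5, 2406 and 2661 normalised reads in FMTg and 1871, 1018.5 and 1710.2 in Tg kidneys, and Ptgfr had 492 to 801 there. In Tg kidney replicates 1, 2 and 3 Akr1c18 stood at 208%, 15.6% and 589% of the ovary of the same mouse. Its mean log2 value was 10.54 in Tg kidneys and 10.24 in Tg ovaries. Its call therefore does not place the ovary above the kidney. Between genotypes these kidney levels differed by 0.10 ± 0.59 for Akr1c18 and by -0.10 ± 0.16 for Ptgfr.

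**Figure D3:**
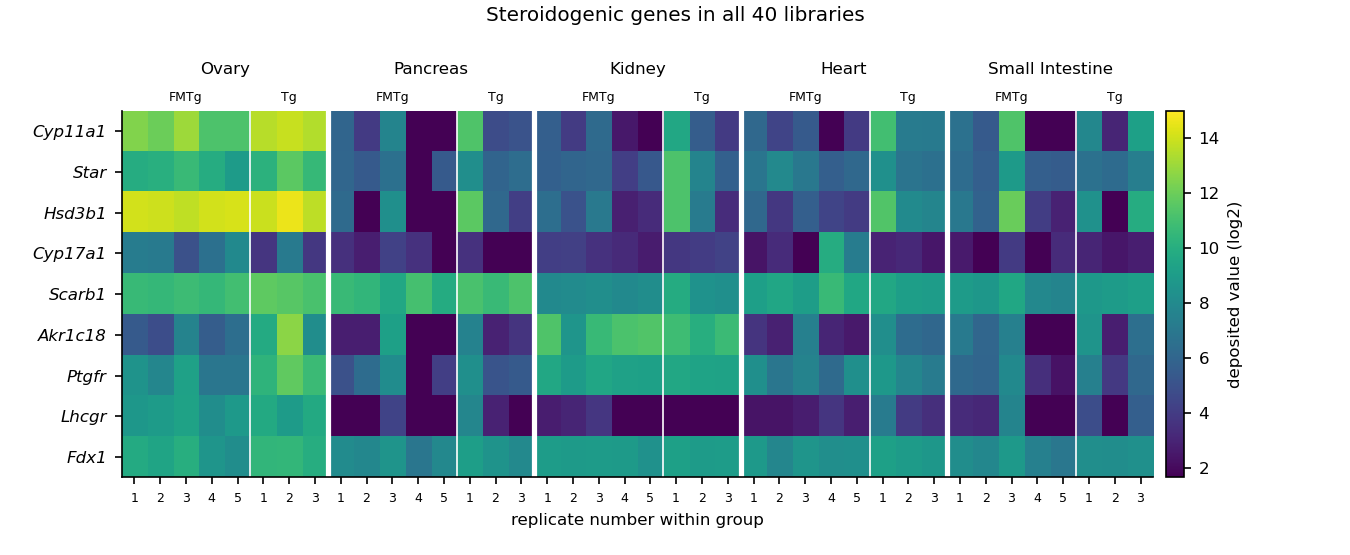
Deposited log2 values of the 9 genes in all 40 libraries, with FMTg (n = 5) left of Tg (n = 3) in each tissue and replicates in order of their number. Colour runs from the lowest value, a gene without reads, to 15. The ovary is brightest for Hsd3b1 and Cyp11a1, single libraries such as Tg replicate 1 of the pancreas and FMTg replicate 3 of the small intestine are bright for the same genes, and Akr1c18 and Ptgfr are bright in every kidney.

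Outside the ovary no genotype difference of the 9 genes passed the limma adjusted threshold. None was called in the pancreas, where 0.446% of genes were called, in the kidney (0.616%), in the heart (0.019%) or in the small intestine (0%, with 388 genes at an unadjusted limma p below 0.05). An unadjusted limma p below 0.05 with a lower mean in FMTg was reached by 5 of the 9 in the heart (Cyp11a1, Hsd3b1, Akr1c18, Lhcgr and Fdx1), where 3.06% of all genes reached it, and by 2 of the 8 tested in the kidney (Star and Scarb1), where 3.94% did. It was reached by none in the pancreas or the small intestine. A test of whether the genotype difference in the ovary departs from the mean of the other 4 called none of the 9 either, with 0.105% of all genes called. The nearest were Ptgfr, whose ovary difference departed from the mean of the others by -2.59 ± 0.98 (limma adjusted p = 0.640), and Akr1c18 (-3.23 ± 1.44, adjusted p = 0.908).

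**Figure D4:**
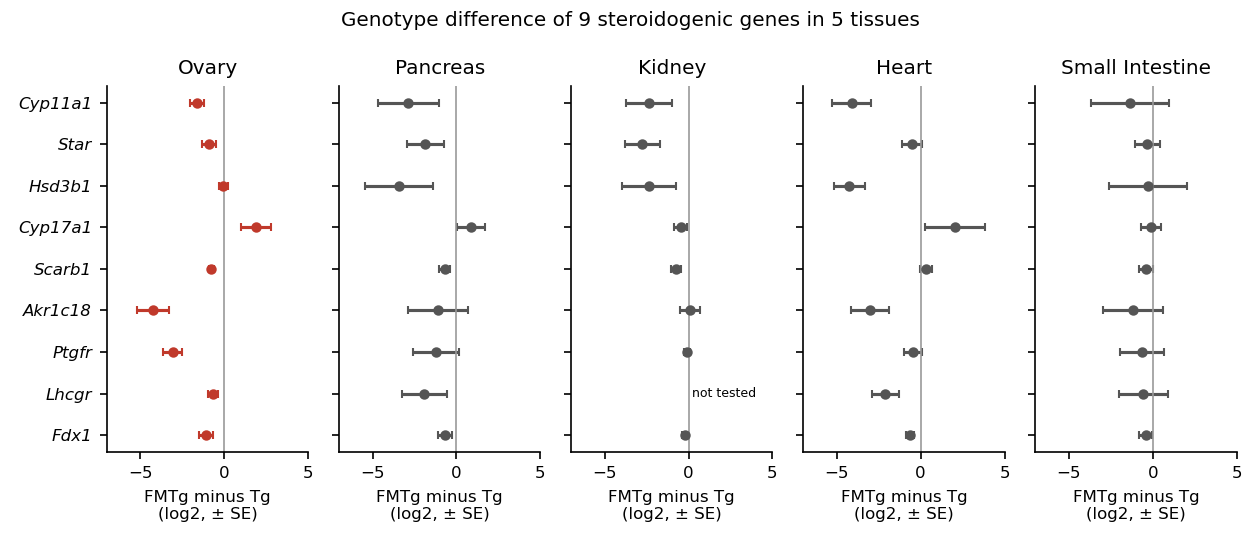
FMTg minus Tg differences (log2, ± SE of the limma model, n = 5 and 3) of the 9 genes in each tissue. The ovary values of Akr1c18 (-4.25) and Ptgfr (-3.07) lie far from those in the kidney (0.10 and -0.10), and Cyp11a1 and Hsd3b1 have wide errors in the other 4 tissues.

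In the heart Cyp11a1 had 66.5, 15.5, 36.5, 0 and 9.47 normalised reads in FMTg and 2002, 141 and 130.5 in Tg libraries. Hsd3b1 there had 65.7, 8.52, 45.2, 15.2 and 10.1 in FMTg and 2632, 259 and 206 in Tg hearts. For these 2 genes every FMTg heart lay below every Tg heart, which 3.49% of all genes showed in the heart. The differences were -4.11 ± 1.18 and -4.24 ± 0.90 (exact p = 0.0179 each, limma adjusted p = 0.760 and 0.628). Tg heart replicate 1 carried part of them: without it they were -2.83 and -3.08. Lhcgr in the heart differed by -2.10 ± 0.82 with overlapping groups (exact p = 0.0357, limma adjusted p = 0.760), and by -0.95 without that library. Scarb1 in the kidney was the other case, at 250.5, 264, 296, 246 and 285 normalised reads in FMTg and 921, 342 and 304 in Tg kidneys, with all FMTg below all Tg, as in 4.56% of all genes there. Its difference was -0.76 ± 0.31 (exact p = 0.0179, limma adjusted p = 0.564), and it was -0.26 without Tg kidney replicate 1, the library with 921 reads.

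The highest values of Cyp11a1 outside the ovary were those of single libraries. Cyp11a1 had 57.15, 9.67, 201, 0 and 0 normalised reads in FMTg pancreas and 2522, 20.6 and 28.0 in Tg pancreas. In the small intestine it had 91.3, 36.5, 2578, 0 and 0 in FMTg and 225, 3.00 and 603 in Tg libraries, and in the kidney 46.0, 9.89, 69.6, 1.09 and 0 in FMTg and 787, 41.2 and 9.45 in Tg libraries. Each tissue thus had 1 library far above the rest, Tg replicate 1 in the pancreas, heart and kidney and FMTg replicate 3 in the small intestine.

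In those libraries several members kept the proportions of the ovary of the same mouse. Tg replicate 1 of the pancreas held 20.4% of the normalised reads of its own ovary for Cyp11a1, 20.1% for Hsd3b1, 20.3% for Akr1c18, 24.0% for Ptgfr, 24.6% for Lhcgr and 24.9% for Star. FMTg replicate 3 of the small intestine held 30.4% for Cyp11a1, 28.8% for Hsd3b1, 29.0% for Star and 30.6% for Lhcgr. Tg replicate 1 of the heart held 16.2% for Cyp11a1, 16.6% for Hsd3b1 and 16.2% for Lhcgr. The other members did not keep these proportions: they stood at 40.01% (Fdx1) to 81.7% (Cyp17a1) of the own ovary in that pancreas, 38.55% (Cyp17a1) to 88.2% (Akr1c18) in that small intestine and 24.45% (Scarb1) to 43.1% (Fdx1) in that heart. For Cyp17a1 the reads were too few to tell. It had 3 reads in that pancreas and 6 in its ovary, and 11 in that small intestine and 31 in its ovary. Granulosa markers, which are not members, were present there too. Inha had 219.6 normalised reads in that pancreas and 135.0 in that heart, against 884.1 in their own ovary. In that small intestine it had 311.6, against 1099.4 in its own ovary. Amh had 75.9 in that pancreas and 21.6 in that heart, against 254.9. In that small intestine it had 75.9, against 242.1. The ovaries of these 2 mice were those with the most acinar reads, at 5.98% in FMTg replicate 3 and 27.7% in Tg replicate 1. What carried these reads was not tested.

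**Figure D5:**
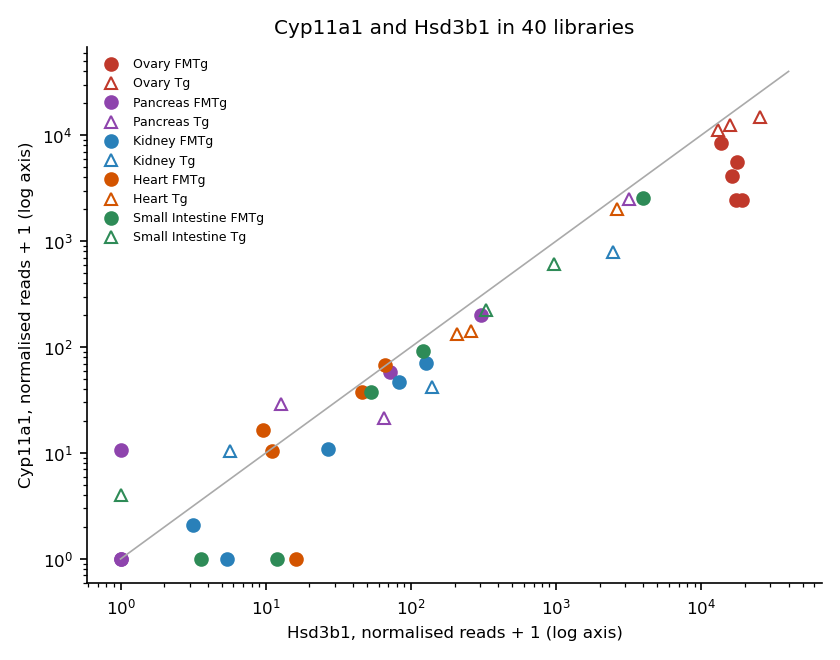
Cyp11a1 against Hsd3b1 in all 40 libraries, as normalised reads + 1 on log axes, with filled circles for FMTg, open triangles for Tg and 1 colour per tissue. The grey line marks equal values. FMTg ovaries lie lower at the right edge than Tg ovaries, and most libraries of other tissues follow the line just below it over a wide range.

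The read ratio of Cyp11a1 to Hsd3b1 outside the ovary was also near that of Tg ovaries in most libraries with at least 50 Hsd3b1 reads. It was 0.658 in FMTg replicate 3 and 0.791 in Tg replicate 1 of the pancreas. In the heart it was 1.01 and 0.808 in FMTg replicates 1 and 3 and 0.543 to 0.761 in the 3 Tg libraries. In the small intestine it was 0.654 to 0.759 in FMTg replicates 1 to 3, and 0.685 and 0.627 in Tg replicates 1 and 3. FMTg replicate 1 gave 0.759 in the small intestine and 0.319 in its own ovary, so the proportion was not always that of the same mouse. The kidney differed, with 0.318 and 0.295 in Tg replicates 1 and 2, and 0.566 and 0.553 in FMTg replicates 1 and 3.

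Kidney Tg replicate 1 also held adrenal transcripts. Cyp11b1 and Cyp21a1, enzymes of the adrenal cortex, had 2184 and 2476 normalised reads in it, and the 5 adrenal markers summed to 26.3 to 99.7 in FMTg kidneys and to 4903, 311 and 40.9 in Tg kidneys. Star had 2478 normalised reads in that kidney, 206% of the value in the ovary of the same mouse, against 12.0 to 66.0 in FMTg kidneys and 196 and 47.2 in the other Tg kidneys. Lhcgr had no read in it.

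Cyp17a1 outside the ovary was near 0 apart from 2 hearts, at 0.791, 4.645, 0, 968.5 and 144 normalised reads in FMTg hearts and 2.81, 4.05 and 0.946 in Tg hearts. The same 2 hearts, FMTg replicates 4 and 5, held 1001199 and 144014 normalised reads of the albumin gene Alb, against 10.3 to 68.1 in the other FMTg and 12.3 to 643 in the Tg hearts, and the first of them had the highest Scarb1 of the hearts (1667). These hepatocyte markers were chosen after the values were seen.

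The FMTg mice also differed in sex. Reads of 4 genes of the Y chromosome summed to 1583 to 4358 normalised reads in FMTg replicates 4 and 5 of the kidney, heart and small intestine and to 1989.9 to 2534 in FMTg replicates 1, 4 and 5 of the pancreas. In all other libraries of the 5 tissues they summed to at most 62.1, and in the ovaries to at most 3.58. Outside the ovary the males were thus all FMTg. Cyp11a1 was at 0 to 9.47 normalised reads in the libraries of their kidney, heart and small intestine. In their 3 pancreas libraries it was at 57.15, 0 and 0, against 20.6 and 28.0 in Tg pancreas replicates 2 and 3. In pancreas FMTg replicate 4, the shallowest library, 3 reads are 18.5 normalised reads, so its 0 is a weak value. By the numbers in the titles, FMTg replicates 4 and 5 are the same mice in the kidney and heart. They are other mice in the pancreas and small intestine, and others again in the ovary. In the ovaries of FMTg replicates 4 and 5, 1572 and 2125 genes had no reads, against 694 to 1063 in the other ovaries. What set these ovaries, or the other libraries of FMTg replicates 4 and 5, apart was not tested. FMTg heart replicates 1 to 3, from mice with an ovary library, had 15.5 to 66.5 normalised reads of Cyp11a1 and 8.52 to 65.7 of Hsd3b1. These values lay below all Tg hearts. Among mice with an ovary library the kidney difference of Akr1c18 was -0.35, against 0.10 in all 8 kidneys. The part of sex in the differences of the heart and the other 3 tissues was not tested. Nor was its part in the test of the ovary difference against the mean of the others.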

How the data were processed

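RNA of 5 tissues was sequenced, with 5 FMTg and 3 Tg libraries per tissue, grouped by the genotype in the labels. Reads were aligned with STAR 2.6.0b to GRCm38 and the values came from DESeq2, as the submitters' processing notes record. The read counter, the strand setting and the annotation release are not given in the sources used here. The authors deposited variance-stabilised log2 values of 18024 genes, made over all 40 libraries after division by size factors. A gene without reads has the value 1.65. Inverting the transformation gave whole reads for 100% of values (tolerance 0.01, largest distance 1.67e-07), 7.16 to 29.0 M (mega) reads per library.

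The deposited log2 values were tested per tissue with limma 3.58.1 in R 4.3.3 (genotype as the only term, mean-variance trend, Benjamini-Hochberg adjustment over all genes tested), for genes whose mean in the tissue was 1 or more above the value without reads. All 40 libraries were fitted in 1 model with mouse as a random block (statmod 1.5.0, correlation 0.249) for the comparison of the ovary with other tissues. The procedure was tested on simulated data. The library titles give each replicate a mouse number, so p-values measure the spread between mice. Replicate numbers do not pair FMTg with Tg mice.

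The 9 genes, the pathway lists and the marker lists were chosen with earlier results of these data known. Pathway genes were named where their unadjusted limma p in the ovary was below 0.05, marker lists by up to 2 genes of highest mean, and the 5 most alike genes by root mean square distance from the mean centred profile of the 9. Gene IDs were matched to GENCODE M21 without their version, 18017 of 18024. Of the 9 genes 7 have the same version there. Promoters, in RefSeq coordinates on GRCm38.p6, were found for Cyp11a1, Hsd3b1, Akr1c18, Ptgfr, Lhcgr and Fdx1. Alternatives were other filters, log2(normalised reads + 1) and + 8, voom, library weights, size factors without acinar genes, no variance trend, a replicate block, leaving out each library, leaving out FMTg replicates 4 and 5, only mice with an ovary library, and 1 model of all libraries.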

Additional observations from a re-analysis of the deposited data

Results flagged for a closer look

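In groups of 5 FMTg libraries, 9 of 44 had 1 library set apart from the other 4 by more than Dixon's limit for a group of that size, where chance flags about 1 in 20 groups. All 9 were outside the ovary. Values are normalised reads. FMTg replicate 3 was the high library in 5 of them: Akr1c18 in the pancreas (590, against 0 to 1.97 in the other FMTg libraries) and the heart (170, against 1.26 to 7.12), Lhcgr in the pancreas (14.7, against 0) and the small intestine (200, against 0 to 4.46), and Star in the small intestine (474.0, against 41.1 to 77.2). Lhcgr in the heart was high in FMTg replicate 4, at 7.57 against 0.774 to 1.89. Star in the pancreas was listed at 0 in FMTg replicate 4, against 36.7 to 89.9. In the kidney Akr1c18 was low in FMTg replicate 2, at 378 against 1602.5 to 2661, and Fdx1 was low in FMTg replicate 5, at 326 against 473 to 512.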

How the results depend on the processing

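The 9 genes kept the sign of their ovary difference under all 19 alternatives, except Hsd3b1 (0.02 without FMTg replicate 3, 0.22 without Tg replicate 2). Leaving out single libraries moved the ovary median of the 9 from -1.10 to -0.83, and Hsd3b1 from -0.26 to 0.22. No member was called in the ovary except Ptgfr under library weights (1 member, 17 genes). Genes called in the ovary numbered 63 in the model of all libraries and 0 to 3 with single libraries left out.

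Replicate numbers did not pair the ovaries: same-numbered libraries correlated at -0.48, -0.06 and -0.59. With the replicate block the ovary median was -0.60 and 0 genes were called in the ovary, the pancreas and the heart. The block also called 119 genes in the kidney, and it uses only FMTg replicates 1 to 3.

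Outside the ovary, genes called with single libraries left out numbered 9 to 93 in the pancreas, 46 to 94 in the kidney and 1 to 4 in the heart. Among mice with an ovary library there were 2 in the pancreas and 1 in the heart. With no filter on low values the heart had 10 and the small intestine 2.

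Signs turned in 3 ways, and the cause was not tested. With the replicate block and, with the same values, among mice with an ovary library, differences became 1.08 (Cyp11a1), 0.23 (Star), 1.61 (Hsd3b1), 0.12 (Scarb1), 0.94 (Akr1c18), 0.91 (Ptgfr), 0.65 (Lhcgr) and 0.0253 (Fdx1) in the small intestine, 0.0175 (Star), -0.43 (Cyp17a1) and -0.0175 (Scarb1) in the heart and -0.35 (Akr1c18) in the kidney. In the pancreas Akr1c18 was 0.21 with the block and 1.28 among those mice, and Ptgfr 0.21 and 0.97. With single libraries left out, values ranged from -2.50 to 0.33 (Akr1c18) in the pancreas, -0.17 to 0.61 (Akr1c18) in the kidney, -0.855 to 0.0552 (Star) in the heart, -2.80 to 1.33 (Hsd3b1), -2.74 to 0.15 (Akr1c18), -1.61 to 0.18 (Ptgfr), -1.78 to 0.25 (Lhcgr), -0.26 to 0.13 (Cyp17a1) in the small intestine. The ovary difference against the mean of the others turned for Cyp11a1 (-0.0659) and Lhcgr (-0.0268) without FMTg replicates 4 and 5, and without single mice it ranged from -0.77 to 1.80 (Cyp11a1), -0.64 to 1.06 (Star), -0.56 to 0.56 (Lhcgr).

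Groups of 5 and 3 libraries limit all of these comparisons. The exact p of a single gene cannot go below 0.0179, and low genes such as Cyp17a1 and Lhcgr outside the ovary rest on few reads.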
